A study of Mus musculus with 6 samples.

Results

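Genes of the complement system were examined in brain astrocytes sorted from mice treated with streptozotocin (STZ) or vehicle. The genes were 9 components and regulators, C3, C4b, C1qa, C1qb, C1qc, C1ra, Serping1, Cd55 and C3ar1, taken by gene symbol from the 45777 genes listed in the deposited table, and each symbol matched 1 row. RNA sequencing was performed on tdTomato-positive cells of Aldh1l1 CreERT2; tdTomato fl/fl mice, in which tamoxifen given for 5 days switches on a red fluorescent protein in cells that express the astrocyte gene Aldh1l1. All mice were C57BL/6 males with this reporter, labelled WT, and were 8 weeks old at injection. The STZ group received a single injection of STZ, which kills pancreatic beta cells and so raises blood glucose, and the vehicle group received citrate buffer. Brains were taken 21 days later, cells of 3 brains were pooled for each sample, and each group held 3 samples. P-values therefore measure the spread between pools, and a pool hides the spread between its mice. The comparison asks whether STZ-induced hyperglycemia changed the RNA level of complement genes in these sorts, with the genes that astrocytes are known to make set apart from those known to come from microglia.

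Complement is a cascade of proteins that tags cells, debris and synapses for removal. C1q, built from chains encoded by C1qa, C1qb and C1qc, recognizes the target and activates the proteases C1r and C1s, which cleave C4 and C2 to form the enzyme that cleaves C3. Fragments of C3 coat the target and signal through receptors such as C3ar1, whereas Serping1 (C1 inhibitor) and Cd55 (decay-accelerating factor) hold the cascade back. In the brain, C1q chains and C3ar1 are mainly known from microglia, while C3, C4b and Serping1 are known as genes of reactive astrocytes that other cells, including those of vessels, can also express.

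Total counts ranged from 52529048 to 58749115 per sample, so that 3 counts corresponded to 0.0511 to 0.0571 CPM (counts scaled to library size), and 22337 genes with a count in every sample were tested, all 9 complement genes among them. The 9 genes held between 58 counts (C1ra) and 7403 counts (C1qb) in a sample. Confidence intervals given here rest on the spread between pools, as the p-values do, and leave out the spread between mice within a pool. Markers of 8 astrocyte genes summed to between 5984 and 6956 FPKM (fragments scaled to transcript length and mapped reads) in every sample, against 262 to 387 FPKM for 10 microglial markers, none of which was at 0, so that astrocyte markers were abundant in every sort, with RNA of other cells beside them. Summed endothelial markers lay between 29.7 and 108 FPKM in the vehicle samples and between 114 and 212 FPKM in the STZ samples without overlap, and 7 of 8 were higher in STZ at an unadjusted p under 0.05 in edgeR's quasi-likelihood test. Mural cell markers, which mark pericytes and smooth muscle, summed to 22.3 to 28.8 FPKM in vehicle and 37.8 to 48.7 FPKM in STZ samples. Of these 8 markers, 4 (Rgs5, Acta2, Myh11 and Tagln) were higher in STZ at an unadjusted p under 0.05 in edgeR's fit. Pdgfrb, the most abundant of them, had a log2 fold change of -0.08. Fibroblast and meningeal markers summed to 15.8 to 53.1 FPKM in vehicle and 55.1 to 93.1 FPKM in STZ samples. Much of this sum was Mgp, at 5.89, 15.5 and 35.9 FPKM in vehicle and 55.5, 74.3 and 42.9 FPKM in STZ samples. It was the only 1 of 8 with an unadjusted p under 0.05 in edgeR's fit, and 5 of 8 had a positive difference. Neutrophil and monocyte markers summed to 205 to 1220 FPKM in vehicle and 757 to 1739 FPKM in STZ samples. Choroid plexus and ependymal markers were lowest in vehicle replicate 1, at 4304 FPKM, and reached 7075 to 12942 FPKM in the other 5 samples. Oligodendrocyte markers summed to 845, 366 and 344 FPKM in vehicle and 1257, 452 and 487 FPKM in STZ samples. STZ replicate 1 stood above the rest in this sum, with Mbp at 1620 normalized CPM against 160 to 393 in the other samples, although Mag and Mog were highest in vehicle replicate 1. Neuronal markers summed to 20.5 to 40.4 FPKM in vehicle and 31.0 to 44.4 FPKM in STZ samples, Slc17a7 was at 0 in at least 1 sample, and 0 of 8 oligodendrocyte and 0 of 6 tested neuronal markers had an unadjusted p under 0.05 in edgeR's fit.

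A gene was called when its adjusted p was below 0.05 with a fold change beyond 1.5. None of the 9 complement genes was called in edgeR's quasi-likelihood test with Benjamini-Hochberg adjustment, where 0.0224% of all tested genes were (5 of 22337). At an unadjusted p under 0.05 the count was 1 of 9, C4b, against 11.3% of all genes. With DESeq2 also 0 of 9 were called, against 1.27% of its tested genes, and 2 of 9 (C4b and Serping1) had an unadjusted p under 0.05, against 10.3%. The groups did not overlap for 1 of 9, C3ar1, against 18.5% of all genes (8.64% higher and 9.85% lower in STZ). The fitted difference was positive for 8 of 9 genes, with a median of 0.33 on the log2 scale, while 51.9% of all genes had a positive difference with a median of 0.01. In bulk RNA of sorted cells, fewer cells of a type and less RNA per cell cannot be told apart.

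**Figure D1:**
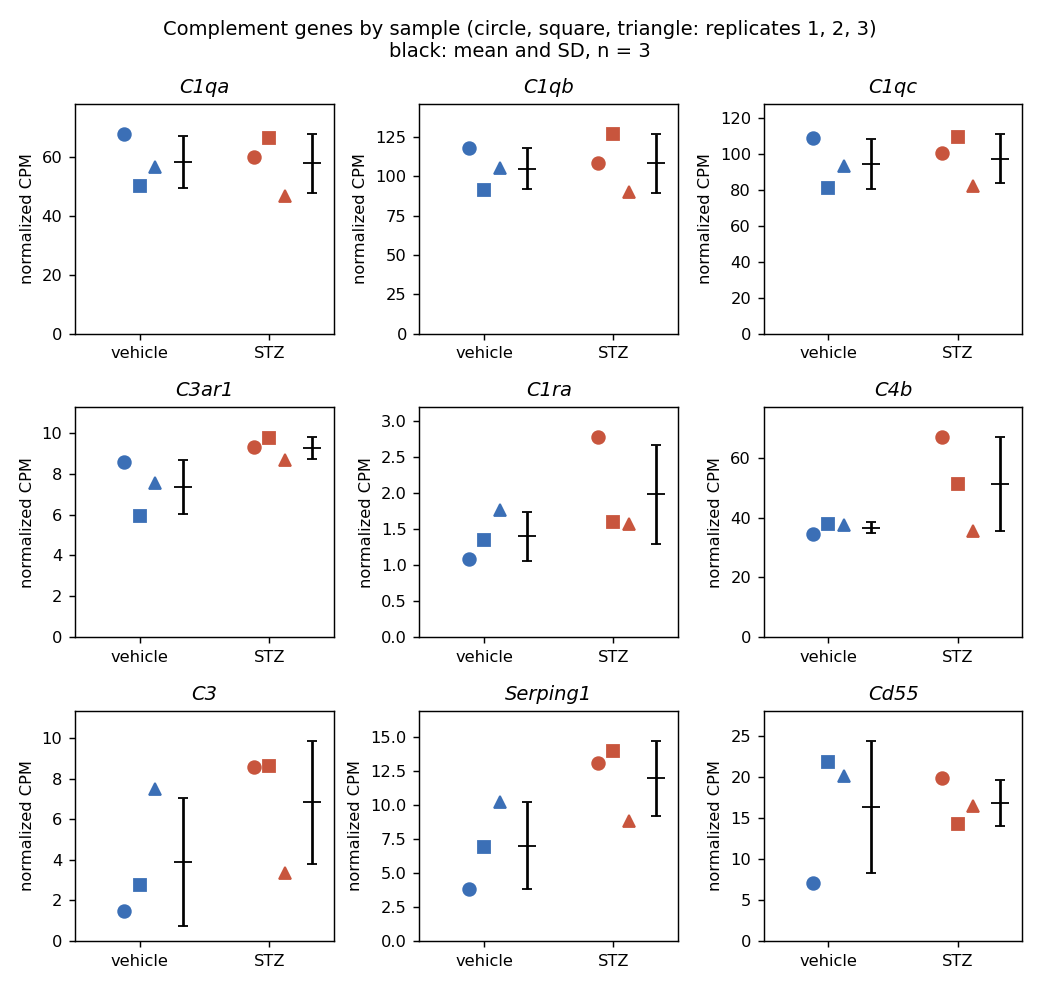
Normalized CPM of each complement gene (vertical axis, from 0) in the 3 vehicle and 3 STZ samples, with circle, square and triangle for replicates 1, 2 and 3 and black marks for the mean and SD (n = 3). The 3 C1q chains sit at the same level in both groups, the STZ group of C4b and both groups of C3 and Serping1 are wide and overlap with the other group, and only the C3ar1 groups are apart.

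**Figure D2:**
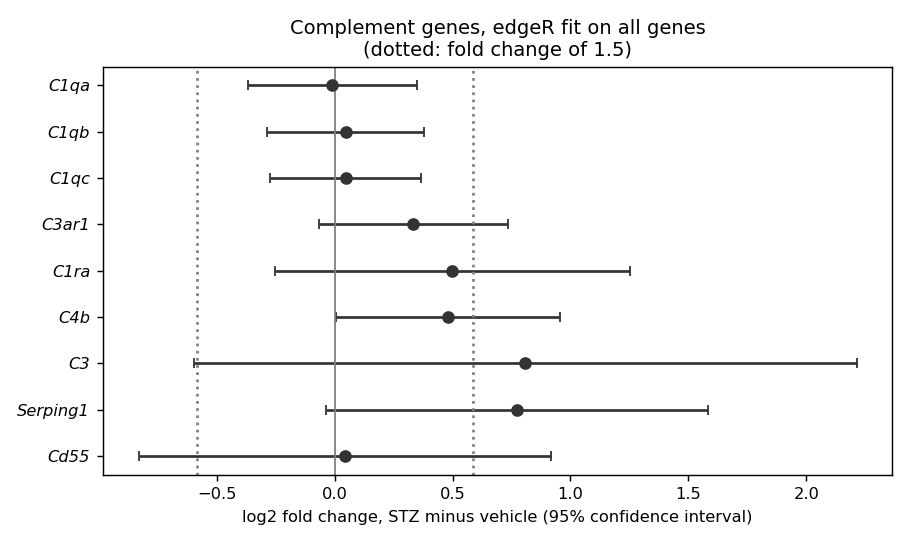
Log2 fold change (STZ minus vehicle) of each complement gene from edgeR's fit across all genes, with its 95% confidence interval and dotted lines at a fold change of 1.5. The C1q chains lie at 0 with the narrowest intervals, and C3 has the widest interval.

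The levels of the 9 genes spanned a wide range when expressed per transcript length. C1qb was the most abundant at 90.9 ± 13.1 FPKM (SD, n = 6), followed by C1qc at 84.3 ± 12.5 FPKM and C1qa at 50.5 ± 7.58 FPKM, ranking 737, 804 and 1497 among the 22337 genes. C4b followed at 7.68 ± 2.40 FPKM and Serping1 at 4.87 ± 2.05 FPKM. The C1q chains together made up 89.4% to 95.3% of the summed FPKM of the 9 genes, a share that covers these 9 genes and leaves out other complement genes such as Clu. Cd55 reached 4.58 ± 1.56 FPKM, C3ar1 1.82 ± 0.333 FPKM, C3 1.11 ± 0.645 FPKM and C1ra 0.575 ± 0.210 FPKM, with ranks from 8849 to 15615. C1qc exceeded C1qa, and C1qa exceeded C4b, in all samples without overlap of their ranges. All other neighbors in this order had overlapping FPKM ranges: C1qb was above C1qc, C4b above Serping1 and Cd55 above C3ar1 in 6 of 6 samples, C3ar1 above C3 and C3 above C1ra in 5 of 6, and Serping1 above Cd55 in 2 of 6.

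The C1q genes encode the recognition subunit of the classical pathway and lie side by side on chromosome 4, in the order C1qb, C1qc and C1qa within 18.7 kb. By RefSeq coordinates on GRCm38, which mm10 represents, C1qb (NCBI gene 12260) is at chr4:136880126-136886200, C1qc (12262) at chr4:136889801-136892936 and C1qa (12259) at chr4:136895916-136898844, and the gaps between them are 3600 and 2979 bp. Since these neighbors moved together across the samples, the 250 bases before their start sites are shown, from the RefSeq promoter table of GRCm38.p6, 5′ to 3′ on the strand of the gene, with C3 for comparison as a complement gene whose levels followed another course. Promoters of 6 of the 9 genes were found in that table, and C1qa, C4b and Serping1 had no entry. Capitals mark matches to AGGAAGT, the core bound by ETS family factors, and to GAGGAAGT, a PU.1 core that contains the former; both motifs were searched on both strands, so a match on the reverse strand reads ACTTCCT or ACTTCCTC. The C1qb window is chr4:136886201-136886450, the C1qc window chr4:136892915-136893164 and the C3 window chr17:57228137-57228386, all on the minus strand. The last bases of the C1qc window lie inside the gene coordinates given above, so the start site used there is not the outer end of the gene.
C1qb: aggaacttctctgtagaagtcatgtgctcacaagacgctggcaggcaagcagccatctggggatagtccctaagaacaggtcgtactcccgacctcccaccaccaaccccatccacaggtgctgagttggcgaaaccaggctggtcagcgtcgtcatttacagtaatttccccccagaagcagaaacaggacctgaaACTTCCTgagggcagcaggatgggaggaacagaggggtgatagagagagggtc
C1qc: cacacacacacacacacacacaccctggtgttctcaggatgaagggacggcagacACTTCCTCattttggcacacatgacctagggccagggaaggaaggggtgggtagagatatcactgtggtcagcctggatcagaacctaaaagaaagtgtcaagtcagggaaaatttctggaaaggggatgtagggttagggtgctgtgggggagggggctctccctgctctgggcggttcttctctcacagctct
C3: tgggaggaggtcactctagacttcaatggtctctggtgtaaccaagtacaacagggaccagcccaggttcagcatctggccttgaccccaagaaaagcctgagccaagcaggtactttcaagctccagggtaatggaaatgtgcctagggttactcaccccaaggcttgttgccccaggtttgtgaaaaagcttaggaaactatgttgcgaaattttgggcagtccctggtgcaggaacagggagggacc
The ETS core stood 53 to 47 bp before the start of C1qb and 195 to 189 bp before that of C1qc, in 2 of the 6 promoters, and 7.69% of 32851 mouse promoter windows of the same length held it. The PU.1 core was found in C1qc only, 195 to 188 bp before the start, and in 2.44% of all windows. Neither TTCNNNGAA, the GAS element of STAT factors, nor TTGNNNCAA, a C/EBP form, was in any of the 6 windows, and 7.02% and 5.02% of all windows held them. These matches describe the letters in the windows and say nothing about binding.

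C1qa measured 67.8, 50.4 and 56.9 normalized CPM in vehicle replicates 1 to 3 and 60.3, 66.8 and 46.8 in STZ replicates 1 to 3. The highest and the second highest sample came from different groups, and the groups overlapped throughout. The means were 58.4 ± 8.80 and 57.9 ± 10.2 normalized CPM (SD, n = 3 each), a log2 fold change of -0.01 (SE 0.154) and a fold change of 0.993 with a 95% confidence interval of 0.774 to 1.27 (adjusted p = 0.984, edgeR's quasi-likelihood test with Benjamini-Hochberg adjustment). C1qb measured 118, 91.7 and 105 normalized CPM in vehicle and 108, 127 and 89.8 in STZ samples, with a fold change of 1.03 (0.820 to 1.30). C1qc, the chain whose gene lies between the others, measured 109, 81.0 and 93.5 normalized CPM in vehicle and 100.8, 109 and 82.3 in STZ samples, with a fold change of 1.03 (0.827 to 1.29). The same sample, STZ replicate 2, was the highest for C1qb and C1qc and the second highest for C1qa, and vehicle replicate 1 was within the highest 2 for all 3 chains. For each chain the interval left out a rise or a fall by 1.5-fold.

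The ratio between the chains varied little between samples. C1qb FPKM divided by C1qa FPKM lay between 1.71 and 1.88, and C1qc divided by C1qa between 1.61 and 1.75, over all 6 samples. Set against the microglial markers, C1q counts came to 300.0, 337 and 385 per 1000 microglial marker counts in vehicle samples and to 409, 344 and 331 in STZ samples, with means of 341 ± 42.8 and 361 ± 42.0 (SD, n = 3 each). The highest ratio belonged to STZ replicate 1 and the lowest to vehicle replicate 1, but the groups overlapped, and the log2 difference was 0.09. The microglial markers themselves summed to 262 to 387 FPKM in vehicle and 271 to 365 FPKM in STZ samples, and 0 of 10 had an unadjusted p under 0.05. Markers of border macrophages, which also express C1q, summed to 11.8 to 21.6 FPKM in vehicle and 9.90 to 22.2 FPKM in STZ samples, with 3 of 6 lower in STZ at an unadjusted p under 0.05 in edgeR's fit, and their part in the C1q level was not tested. Over the 6 samples, log2 CPM of the chains, centred on its mean, differed from the mean microglial marker profile by a root-mean-square of 0.145 (C1qa) to 0.151 (C1qc) and from the endothelial one by 0.863 to 0.893. The distance to the astrocyte markers was as short, 0.140 to 0.153, and these profiles therefore do not tell microglia from astrocytes as a source of the C1q RNA.

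C3ar1 encodes the receptor for the C3a fragment (NCBI gene 12267, chr6:122847140-122856157). It measured 8.56, 5.94 and 7.52 normalized CPM in vehicle and 9.32, 9.74 and 8.68 in STZ samples. Every STZ sample was above every vehicle sample, although the lowest STZ value and the highest vehicle value were close together. The means were 7.34 ± 1.32 and 9.25 ± 0.534 normalized CPM (SD, n = 3 each), and the fold change of 1.26 (95% confidence interval 0.954 to 1.66, log2 0.33, SE 0.172) did not pass the test (adjusted p = 0.508 with edgeR's quasi-likelihood test, 0.475 with DESeq2). Non-overlap in this direction was seen for 8.64% of all genes. Per 1000 microglial marker counts, C3ar1 gave 8.72, 8.97 and 11.3 counts in vehicle and 14.2, 11.1 and 13.1 in STZ samples, and on this scale the groups overlapped, since STZ replicate 2 lay below vehicle replicate 3. Its log2 fold change was 0.36 with the microglial marker score as a covariate. C5ar1, the receptor for the C5a fragment, was picked out after its values were seen; it measured 10.7, 9.02 and 20.6 normalized CPM in vehicle and 28.5, 28.2 and 14.4 in STZ samples and did not pass either (log2 fold change 0.82, adjusted p = 0.461, edgeR's quasi-likelihood test).

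C4b, the mouse C4 component that C1s cleaves, is a gene strongly linked to reactive and aging astrocytes (NCBI gene 12268, chr17:34728139-34743902). It measured 34.5, 38.0 and 37.5 normalized CPM in vehicle and 66.8, 51.3 and 35.4 in STZ samples. The vehicle samples lay close together, STZ replicates 1 and 2 were above all of them, and STZ replicate 3 fell inside the vehicle range. The means were 36.7 ± 1.89 and 51.2 ± 15.7 normalized CPM (SD, n = 3 each), and the fold change of 1.40 (95% confidence interval 1.004 to 1.94, log2 0.48, SE 0.204) had an unadjusted p of 0.0477 and an adjusted p of 0.439 in edgeR's quasi-likelihood test with Benjamini-Hochberg adjustment. Without STZ replicate 1 the log2 fold change was 0.24, and without STZ replicate 3 it was 0.69. STZ replicate 1, the highest for C4b, was also the highest in summed oligodendrocyte, endothelial and mural markers. Vehicle replicate 1, with the second highest oligodendrocyte sum (845 FPKM), was the lowest for C4b. The parts of oligodendrocyte and mural RNA in the C4b difference were not tested. C4a, its near-identical neighbor, lies with it in a stretch of 95.3 kb that includes both genes. C4a took 4.59% to 7.30% of the counts of both genes, and adding those counts to C4b gave a log2 fold change of 0.50. How reads were split between such copies is not stated, so both values are uncertain to that extent. Beside the endothelial marker score as a covariate, the log2 fold change of C4b was 0.14, and beside the microglial score it was 0.48. The endothelial score itself differed between the groups, so that the fit shares the group difference between score and treatment, and the part of vessel RNA in the C4b difference was not tested further.

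C3 is the central component on which all complement pathways converge (NCBI gene 12266, chr17:57203967-57228136). It measured 1.47, 2.74 and 7.49 normalized CPM in vehicle and 8.57, 8.61 and 3.34 in STZ samples. Vehicle replicate 3 and STZ replicate 3 lay on the far side of their groups, and the groups overlapped. The means were 3.90 ± 3.17 and 6.84 ± 3.03 normalized CPM (SD, n = 3 each), and the fold change of 1.75 had an interval from 0.661 to 4.64 (log2 0.81, SE 0.603, adjusted p = 0.636, edgeR's quasi-likelihood test with Benjamini-Hochberg adjustment). At this spread both no change and a rise of 4-fold lay inside the interval. Without vehicle replicate 3 the log2 fold change was 1.69 and without vehicle replicate 1 it was 0.41. C3 per summed endothelial marker FPKM was 0.886%, 1.11% and 1.59% in vehicle and 0.788%, 1.03% and 0.794% in STZ samples, so that relative to vessel markers the STZ values lay within or below the vehicle range. Because the marker sum was higher in every STZ sample, this ratio falls for any gene that rose less than the markers. With the endothelial score as a covariate the sign of the log2 fold change turned to -0.84 (unadjusted p = 0.0792, adjusted p = 0.9995 in edgeR's fit across all genes). As for C4b, that fit shares the group difference between score and treatment.

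The profile of C3 over the samples lay at a root-mean-square distance of 0.384 from the endothelial markers and 0.393 from the neutrophil and monocyte markers on the log2 scale, against 1.06 from the microglial and 0.995 from the astrocyte markers. All 8 endothelial markers and 4 of 8 neutrophil and monocyte markers were among the 500 genes closest to C3, which are 3.08% of the 16243 genes with a mean of at least 1 CPM. The 5 closest genes were Slc28a2 (distance 0.141), Fmo2 (0.159), Hspa12b (0.165), Klf5 (0.188) and Col6a2 (0.196). For C4b the closest were Klhdc9 (0.0815), 4831440D22Rik (0.0925), Polm (0.0942), Fbxl21 (0.0950) and Parp14 (0.0952), and 0 of 8 endothelial markers were among its closest 500. C1qa had as its closest genes, other complement genes apart, Cnnm4 (0.0431), Accs (0.0495), Tet2 (0.0505), 4632427E13Rik (0.0511) and Atp8b2 (0.0565), with 1 of 10 microglial markers in its closest 500. These distances rest on 6 samples in which cell types rose and fell together, and they describe likeness only. They also depend on how widely a profile varied. Around its mean, C3 ran from -1.56 to 0.95, C1qa from -0.30 to 0.23 and the astrocyte score from -0.07 to 0.15. A list that varied little could therefore not lie close to C3, and it lies close to C1qa whatever its course.

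**Figure D3:**
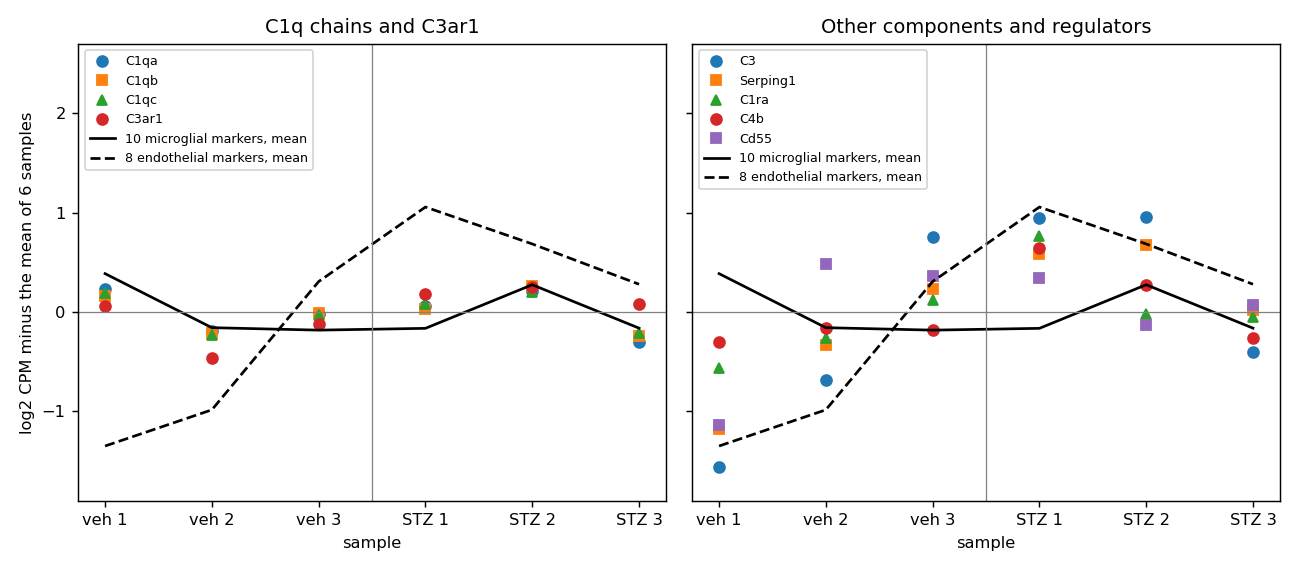
Log2 CPM minus the mean of the 6 samples (vertical axis) for the complement genes in each sample (horizontal axis, vehicle left of the line and STZ right), with the mean of 10 microglial markers (solid line) and of 8 endothelial markers (dashed line). The C1q chains lie at distances of 0.145 to 0.151 from the microglial line, and of 0.140 to 0.153 from the astrocyte markers, which are not drawn. C3 lies at 0.384 from the endothelial line and 0.393 from the neutrophil and monocyte markers, also not drawn. In STZ replicate 3, C3 was at -0.40 and the endothelial mean at 0.28.

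Serping1 encodes the C1 inhibitor, which inactivates C1r and C1s (NCBI gene 12258, chr2:84765360-84775444). It measured 3.82, 6.90 and 10.2 normalized CPM in vehicle and 13.1, 13.9 and 8.80 in STZ samples. As for C3, vehicle replicate 3 was the highest of its group and STZ replicate 3 the lowest, and these 2 samples crossed. The means were 6.98 ± 3.19 and 11.9 ± 2.75 normalized CPM (SD, n = 3 each), and the fold change of 1.71 (log2 0.77, SE 0.348, 95% confidence interval -0.04 to 1.59 on the log2 scale) did not pass the test (adjusted p = 0.462 with edgeR's quasi-likelihood test, 0.208 with DESeq2). Without vehicle replicate 3 the log2 fold change was 1.14, and without vehicle replicate 1 it was 0.48. The Serping1 profile was nearest to the fibroblast and meningeal markers (distance 0.228), then the mural (0.252) and endothelial markers (0.353), and farther from the astrocyte (0.682) and microglial markers (0.754). Serping1 per summed endothelial FPKM was 6.42%, 7.83% and 4.75% in vehicle and 3.28%, 4.63% and 3.99% in STZ samples, where every STZ sample lay below every vehicle sample. The summed endothelial FPKM was itself higher in every STZ sample, so this ratio falls for any gene that rose less than these markers. The log2 fold change was -0.13 with the endothelial score as a covariate, 0.39 with the fibroblast score and 0.83 with the microglial score. The endothelial score differed between the groups, so its fit does not separate vessel RNA from treatment. How far vessel and meningeal RNA made up the Serping1 difference was not tested beyond these fits.

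C1ra encodes the protease C1r, which C1q activates and which in turn cleaves C1s (NCBI gene 50909, chr6:124512621-124523440). With 1.08, 1.35 and 1.76 normalized CPM in vehicle and 2.77, 1.598 and 1.57 in STZ samples, it was the least abundant of the 9 genes. A single sample, STZ replicate 1, lay above the vehicle range, and it also had the highest sums of oligodendrocyte, endothelial and mural markers. Vehicle replicate 1, with the second highest oligodendrocyte sum (845 FPKM), had the lowest C1ra. The C1ra profile lay nearest to the mural markers (distance 0.301), then the choroid plexus and ependymal markers (0.325), with oligodendrocyte markers not compared. The parts of oligodendrocyte and mural RNA here were not tested. The means were 1.40 ± 0.343 and 1.98 ± 0.686 normalized CPM (SD, n = 3 each), a fold change of 1.41 (0.839 to 2.38, adjusted p = 0.584, edgeR's quasi-likelihood test), and without STZ replicate 1 the log2 fold change went from 0.50 to 0.18. The copy C1rb, in the same 123 kb cluster with C1s1 and C1s2, held 14.0% to 23.9% of the counts of both genes, and with those counts added the log2 fold change was 0.45. With the endothelial score as a covariate it was -0.19, under the limit given for C4b.

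Cd55 encodes decay-accelerating factor, which takes apart the enzymes that cleave C3 on the cell surface (NCBI gene 13136, chr1:130429798-130465009). It measured 7.11, 21.8 and 20.2 normalized CPM in vehicle and 19.9, 14.3 and 16.4 in STZ samples. Vehicle replicate 1 was far below the other 5 samples, and all 3 STZ samples lay within the vehicle range. The means were 16.4 ± 8.06 and 16.9 ± 2.81 normalized CPM (SD, n = 3 each), a fold change of 1.03 (95% confidence interval 0.562 to 1.89, log2 0.04, SE 0.375, adjusted p = 0.975, edgeR's quasi-likelihood test). Without vehicle replicate 1 the log2 fold change was -0.32. Choroid plexus and ependymal markers were lowest in the same sample, and the Cd55 profile lay closest to them, at a distance of 0.158 against 0.359 for the next list, fibroblast and meningeal markers. With the choroid plexus score as a covariate, chosen after the data were seen, the log2 fold change was -0.04. The part of choroid plexus RNA in the Cd55 level was not tested beyond this. Whether reads were counted by strand is not stated, and Cd55 overlaps the long noncoding gene Cd55os, so reads of that gene could be among those of Cd55. The copy Cd55b took 1.55% to 2.997% of the counts of both genes.

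**Figure D4:**
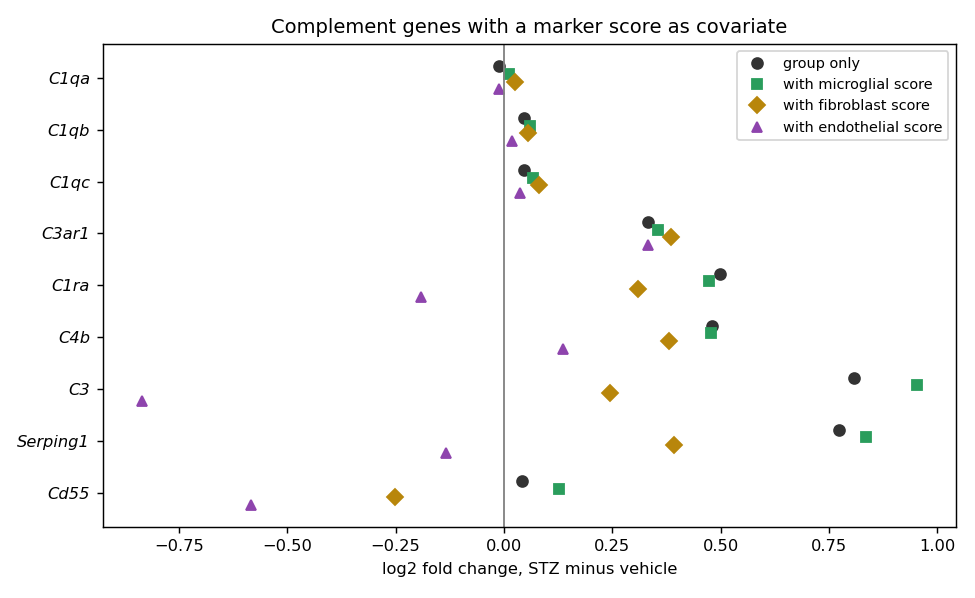
Log2 fold change (STZ minus vehicle, horizontal axis) of each complement gene in edgeR's fit with group alone and with the mean log2 CPM of a marker list as a covariate. With the endothelial score the values of C3, Serping1, C1ra and Cd55 lie below 0, while the microglial score leaves each gene close to its value without a covariate. The endothelial score itself differed between the groups, so its fit shares the group difference between score and treatment. It overlapped only between vehicle replicate 3 (4.12) and STZ replicate 3 (4.10). The microglial score was at a similar level in both groups (5.90, 5.36 and 5.33 in vehicle, 5.35, 5.79 and 5.35 in STZ samples). Its fit could therefore shift the group difference only little.

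Of 56 other genes of the complement pathway, 43 were tested, and 13 had a count of 0 in at least 1 sample, among them Cfd, Mbl1, Mbl2, Colec10, C6, C7 and Cpn2, which were at 0 in every sample. None of the 43 passed the threshold in edgeR's quasi-likelihood test, against 0.0224% of all genes. At an unadjusted p under 0.05 in that test, 2 were higher and 4 lower, against 5.63% and 5.65% of all genes. DESeq2 passed 1 of 43, Sez6l, against 1.27% of its tested genes. The median log2 fold change of the 43 genes was 0.04, with 24 above 0. These lists were made with results of these data known.

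Among 11 tested genes of the initiating steps, 8 were above 0, with a median log2 fold change of 0.25. C2, the partner of C4 in the enzyme that cleaves C3, measured 9.64, 6.88 and 7.94 normalized CPM in vehicle and 18.0, 13.5 and 9.72 in STZ samples. All STZ values were above all vehicle values, by a narrow margin for STZ replicate 3, and the fold change was 1.69 (95% confidence interval 1.14 to 2.49, unadjusted p = 0.0152, adjusted p = 0.347 with edgeR's quasi-likelihood test and 0.0648 with DESeq2). Masp2, a protease of the lectin pathway, measured 1.98, 1.68 and 1.68 normalized CPM in vehicle and 1.27, 0.790 and 0.953 in STZ samples. Its groups did not overlap in the opposite direction (log2 fold change -0.82, adjusted p = 0.347, edgeR's quasi-likelihood test), and its gene overlaps Tardbp. The most abundant genes of this list were C1qbp, a mitochondrial protein first described as a binder of C1q, at 51.6 FPKM with a log2 fold change of 0.09, and the lectin pathway protease Masp1, at 14.2 FPKM with 0.04.

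Of the C4 copy, C5 and the terminal components, which form the membrane attack complex, 3 of 8 were tested. C4a measured 1.96, 1.83 and 1.83 normalized CPM in vehicle and 3.96, 2.85 and 2.79 in STZ samples. The groups were apart (log2 fold change 0.77, SE 0.225, adjusted p = 0.313 with edgeR's quasi-likelihood test and 0.0967 with DESeq2). STZ replicate 1, with the highest oligodendrocyte, endothelial and mural marker sums, was the highest here as for C4b and C2. As a copy of C4b it carries the same uncertainty in the split of reads. Hc, the C5 gene, had a log2 fold change of 0.57 at 0.774 FPKM (adjusted p = 0.458, edgeR's quasi-likelihood test), and C8g, a lipocalin of the C8 complex, 0.26 at 4.77 FPKM.

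For the other regulators, 8 of 19 tested genes were above 0, with a median log2 fold change of -0.06. Clu (clusterin), an astrocyte product that blocks the terminal complex, was far more abundant than any other complement gene at 4701 FPKM and had a log2 fold change of -0.11. Cr1l (Crry), the membrane regulator of rodents, had -0.06 at 40.9 FPKM, and Cd59a, an inhibitor of the membrane attack complex, -0.45 at 28.6 FPKM (adjusted p = 0.689, edgeR's quasi-likelihood test). Sez6 measured 29.6, 34.8 and 24.9 normalized CPM in vehicle and 23.1, 22.3 and 18.3 in STZ samples, and Sez6l 11.97, 6.28 and 7.73 against 5.26, 3.90 and 3.66. These related neuronal membrane proteins with complement control domains were lower in every STZ sample than in any vehicle sample. Sez6l had a log2 fold change of -1.02 (SE 0.276, adjusted p = 0.301 with edgeR's quasi-likelihood test and 0.0128 with DESeq2), and Sez6 one of -0.49 (adjusted p = 0.324 with edgeR's quasi-likelihood test).

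The 10 receptor genes had a median log2 fold change of 0.00, with 5 above 0. Calr (calreticulin), a chaperone of the endoplasmic reticulum that at the cell surface also binds C1q, had the smallest spread relative to its difference. It measured 702, 698 and 685 normalized CPM in vehicle and 452, 497 and 446 in STZ samples. The vehicle values lay close together and far above all STZ values, with means of 695 ± 8.94 and 465 ± 27.8 (SD, n = 3 each). The fold change was 0.669 (95% confidence interval 0.591 to 0.758), with an adjusted p of 0.117 in edgeR's quasi-likelihood test, so it was not called there, and of 7.22e-07 in DESeq2, where the fold change stayed under the required size. Lrp1, a scavenger receptor that takes up calreticulin-tagged material, had a log2 fold change of -0.25 with groups that did not overlap (adjusted p = 0.450, edgeR's quasi-likelihood test). Itgb2, the beta chain of complement receptor 3, had 0.41 with overlapping groups (adjusted p = 0.744, edgeR's quasi-likelihood test).

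**Figure D5:**
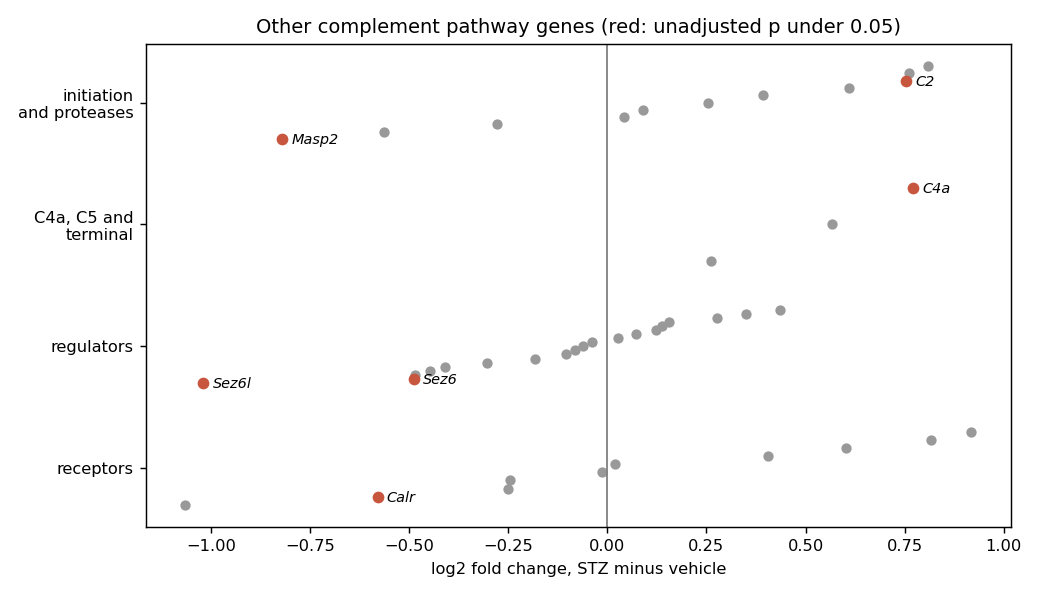
Log2 fold change (STZ minus vehicle, horizontal axis) of the 43 other complement pathway genes tested, by list, with genes of an unadjusted p under 0.05 in red. C2 and C4a stand to the right of 0 and Masp2, Sez6, Sez6l and Calr to the left.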

How the data were processed

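RNA of sorted tdTomato-positive cells from 3 vehicle and 3 STZ samples was analysed, and each sample was a pool of 3 brains. The authors trimmed and aligned the reads to mm10 and quantified genes with StringTie. The submitters' processing notes name bcl2fastq 2.20.0, Trimmomatic 0.38, HISAT2 2.1.0, SAMtools 1.9 and StringTie 2.1.3b. The annotation and the use of strand in counting are not given in the sources used here. The deposited read counts are whole numbers for each gene and are not normalized. The authors also computed FPKM, scaled to transcript length and mapped reads, which served for levels and for comparing genes. TPM, likewise computed by the authors, served in alternatives only.

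Of 45777 genes listed, 45679 matched the RefSeq annotation by NCBI gene number, and the 22337 genes counted at least once in all samples entered a two-sided quasi-likelihood test of edgeR 4.0.16 (R 4.3.3) with group alone in the model, TMM factors and Benjamini-Hochberg adjustment over these genes. Called genes had an adjusted p below 0.05 with a fold change beyond 1.5. Normalized CPM are counts scaled to the TMM-adjusted library size. For profiles, log2 CPM was computed with 2 as the prior count. A marker score is the mean log2 CPM of a marker list. The procedure was tested on simulated data. The alternatives were DESeq2 1.42.0, edgeR with the size factors of DESeq2, no low-count filter, the replicate number as a block, filterByExpr, robust fitting, limma 3.58.1 on log2(TPM + 1) and log2(TPM + 0.1), the microglial and the endothelial score as covariates, counts of near-identical copies added, another threshold, and each sample left out in turn. The fibroblast and the choroid plexus score as covariates were added after the data were seen.

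The 9 genes and all lists were chosen with earlier results of these data known. Of the other pathway genes, those with an unadjusted p under 0.05 and the 3 most abundant of each list by FPKM were named, and for C1qa, C4b and C3 the 5 closest profiles were named. Whether the replicate numbers pair the samples was checked by correlating deviations from the group means. Same-numbered samples gave -0.101, -0.162 and -0.184, so the numbers were not taken as pairs. No 2 samples agreed within sampling noise (the chi-square per gene was 16.0 to 81.4).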

Additional observations from a re-analysis of the deposited data

How the results depend on the processing

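Under all alternatives, 0 of the 9 complement genes were called. Of the 43 other pathway genes, 1 was called by DESeq2, against 1.27% of its tested genes, and 0 under each of the other alternatives. With the replicate number as a block, 0 complement genes and 0 pathway genes were called, with 0 and 7 at an unadjusted p under 0.05, against 1 and 6 without it. No sample correlated best with its own number. At an adjusted p under 0.1 with no fold limit the counts were 0 and 0. Leaving out 1 sample at a time gave 0 called and 0 to 2 complement genes, and 6 to 13 pathway genes, at an unadjusted p under 0.05. In the main edgeR fit 11.3% of all genes had an unadjusted p under 0.05. The shares of all genes under the block and the left-out samples are not given here, so these counts are not read as a result. Of 171 log2 fold changes under alternatives, 154 kept their sign and side of the threshold and 17 changed sign. With the endothelial score as a covariate the sign turned for C3 (-0.84), C1ra (-0.19), Serping1 (-0.13) and Cd55 (-0.58). That score itself differed between the groups, so this fit shares the group difference between score and treatment. With the fibroblast score C1qa had 0.026 and Cd55 -0.25, with the choroid plexus score C1qa had 0.038 and Cd55 -0.036, and with the microglial score C1qa had 0.012. Leaving out 1 sample at a time moved the log2 fold change of C1qa from -0.12 to 0.12, of C1qb from -0.084 to 0.17, of C1qc from -0.066 to 0.16 and of Cd55 from -0.32 to 0.30. The causes of these sign changes were not tested. With 3 pools a group, only differences larger than the spread between pools could pass.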
